A study of Mus musculus with 2 samples.

Results

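The genes of the fibroblast growth factor (FGF) and platelet-derived growth factor (PDGF) families were followed in lymph node stroma from mice with and without a mammary tumor. Members were taken by gene name on the array: every FGF gene with a number, the FGF receptors, the PDGF genes a to d and both PDGF receptors. This gave 32 genes, 26 for ligands and 6 for receptors, of 37008 genes in all. The tumor-draining sample held cells from the nodes that drain a 4T1 mammary carcinoma, put under the skin at the mammary gland of C57BL/6 mice, 2 weeks after inoculation. The normal sample held the same type of cells from mice with no tumor. All mice were female, and both samples were sorted for cells without surface CD45, the antigen of leukocytes encoded by Ptprc, and were hybridized to a one-color Agilent array, 1 array for each group. 4T1 is a mouse mammary carcinoma line that is known as a BALB/c line, so the strain of the tumor and that of the labelled host differ. The labels give neither the number of mice behind a sample nor their age.

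FGFs and PDGFs are secreted growth factors that bind receptor tyrosine kinases on the cell surface. FGFs need heparan sulfate or, for the hormone-like FGFs, a klotho protein to bind FGFR1 to FGFR4, while PDGFs act as dimers on PDGFRα and PDGFRβ. In lymph nodes, fibroblastic reticular cells carry both PDGF receptors and pericytes carry PDGFRβ, and PDGF-B from endothelium is the classical signal that holds pericytes to vessels.

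Before the members, the Ptprc signal and the scale of the arrays are described. Ptprc, the gene of the antigen that the sort was meant to leave behind, had a processed signal of 17432 units on the tumor-draining array, against 3702 units on the normal array. The 75th percentile of the signal, to which each array was scaled, was 358 units on the tumor-draining array and 374 units on the normal array. Of all genes, 59.9% were well above background on both arrays, and their median log2 difference, tumor-draining minus normal, was 0.12. With 1 array in each group there is no replicate error and no test, and precision is limited by the number of arrays. A gene is therefore called higher or lower by size alone, at 2-fold or more, which is 1 on the log2 scale. The errors at hand lie within an array: the scanner software's error of a member's difference was 0.20 to 0.36, and probes for the same gene differed by a median SD of 0.27 over 7599 genes and of 0.58 over the 10 members with several usable probes. Fewer cells of a type and less RNA per cell cannot be told apart in these bulk samples.

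Most members that could be measured were lower in the tumor-draining sample. Both arrays measured 23 of the 32 members above background, and 14 of these were at least 2-fold lower, against 15.9% of all genes so measured. Of the same 23, 1 was at least 2-fold higher, against 11.1% of all genes. A difference below 0 was found for 21 of the 23, against 43.6% of all genes. The median over the 23 members was -1.75, against 0.12 over all genes. A further member was above background in tumor-draining nodes alone, 2 in normal nodes alone (4.13% of all genes were), and 6 on neither array.

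**Figure D1:**
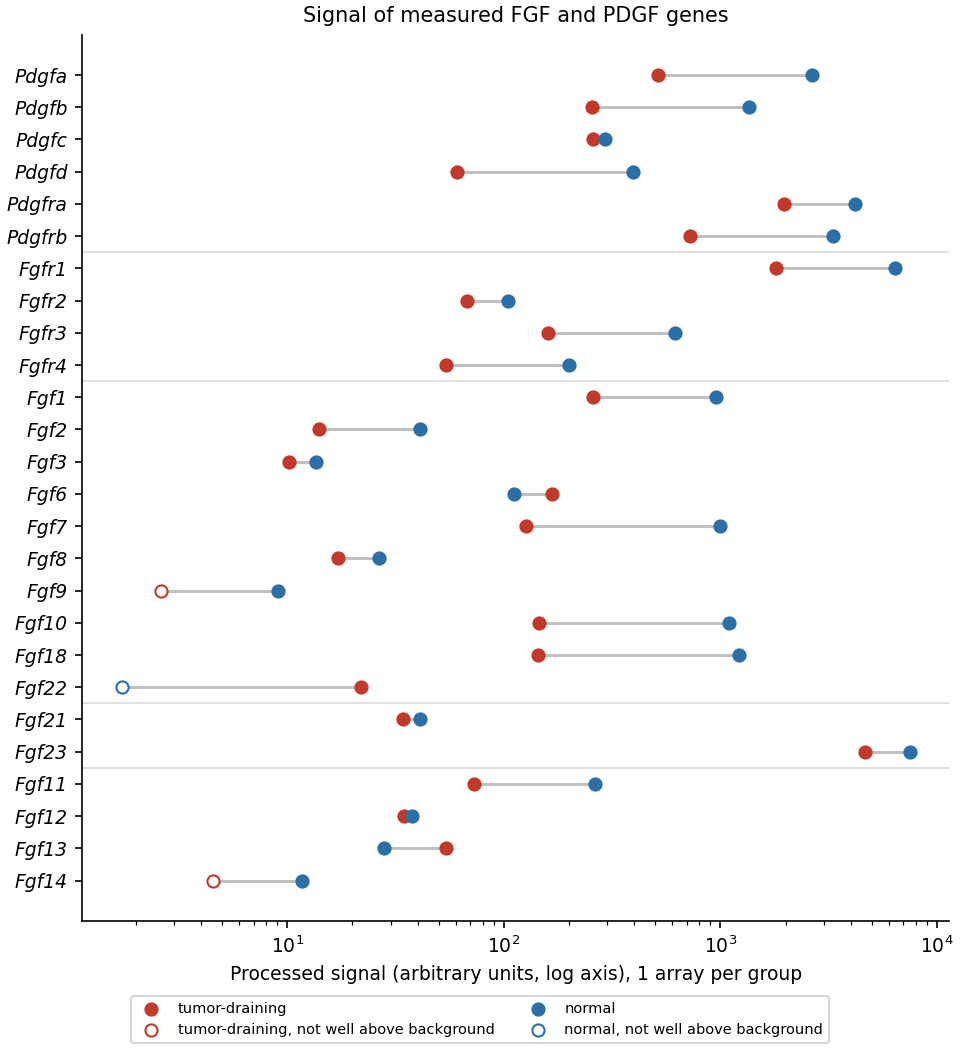
Processed signal of the 26 members above background on at least 1 array, in arbitrary units on a log axis, with the tumor-draining array in red and the normal array in blue. Each point is 1 array, open points were not well above background, and the lines of Pdgfa (514 and 2651 units), Fgf7 and Fgf18 are among the long ones, while Pdgfc and Fgf12 have short ones.

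The plot of signal by gene groups members by role, from PDGF genes at the top to FGFs that stay inside cells at the bottom. Signals of different probes are not compared with each other, since a probe's brightness also depends on its own sequence.

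Of the 4 PDGF ligands, 3 were lower by more than 4-fold and 1 was nearly equal on both arrays. Pdgfa, whose product binds PDGFRα on mesenchymal cells, had a signal of 514 units in tumor-draining nodes, against 2651 units in normal nodes, a 4.94-fold lower level (log2 difference -2.30). Its other probe, at chr5:139455132-139455191 on the minus strand of mm9, had 41.4 units in tumor-draining nodes and 268 units in normal nodes, a difference of -2.63. Both Pdgfa probes thus gave a difference below -2. The 60 bases of this second probe are shown because they read the gene at a different place from the brighter probe. Like 53 of the 64 member probes, it has a reading frame with no stop codon, a trait that was not counted over all probes of the array.
Pdgfa probe: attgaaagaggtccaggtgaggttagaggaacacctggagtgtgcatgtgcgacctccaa

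Pdgfb, the endothelial ligand of PDGFRβ, had a signal of 256 units in tumor-draining nodes, against 1356 units in normal nodes, a difference of -2.34. Its dimmer probe had 26.9 units in tumor-draining nodes and 80.5 units in normal nodes, a difference of -1.52, so the probes differ in size but not in direction. Pdgfd, which is secreted in a latent form and after cleavage binds PDGFRβ, had 60.5 units in tumor-draining nodes, against 395 units in normal nodes, 6.25-fold lower (log2 difference -2.64). The dimmer Pdgfd probe, at chr9:6376926-6376985 on the plus strand of mm9, gave 22.7 units in tumor-draining nodes, against 107 units in normal nodes, and a difference of -2.17. The probe of Pdgfb is shown by its first 30 bases (chr15:79826406-79826435, minus strand).
Pdgfd probe: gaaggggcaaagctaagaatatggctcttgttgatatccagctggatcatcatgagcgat
Pdgfb probe, first 30 bases: gttccttctgcttccttcagtttgtaaagt

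Pdgfc stood apart from the other PDGF ligands. Its product is also secreted in a latent form, and binds PDGFRα once cleaved. It had a signal of 257 units in tumor-draining nodes and 292 units in normal nodes, a log2 difference of -0.12, which is within the scanner software's own error of 0.20. This rests on 1 probe, at chr3:81017844-81017903 on the plus strand of mm9, because the other Pdgfc probe was not well above background on either array. Its first 30 bases are given beside those of Pdgfb so that the probe behind the exception can be looked up.
Pdgfc probe, first 30 bases: caacataatacattgcttgtaaatgcttaa

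Both PDGF receptors were lower, and Pdgfrb by more than Pdgfra. Pdgfrb, the receptor of pericytes and of many fibroblasts, had a signal of 721 units in tumor-draining nodes, against 3301 units in normal nodes, 4.39-fold lower (log2 difference -2.13, 1 probe). Pdgfra, the receptor of mesenchymal fibroblasts, had 1976 units in tumor-draining nodes, against 4205 units in normal nodes, 2.04-fold lower (log2 difference -1.03). Its 3 probes lay between -1.19 and -1.03, the narrowest spread among the 10 members with several usable probes (SD 0.088), so each Pdgfra probe gave a difference near 2-fold. The Pdgfra value lies close to the 2-fold line, and scaling to spike-in probes moved it to -0.25 and that of Pdgfrb to -1.35. The Pdgfra probe lies at chr5:75593888-75593947 on the plus strand of mm9.
Pdgfra probe, first 30 bases: tgtatatatctgttgctatgtagacttgga

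The 4 FGF receptors were all measured, and 3 of them were at least 2-fold lower, against 15.9% of all genes. Fgfr1, the receptor most widely used by mesenchymal cells, had a signal of 1815 units in tumor-draining nodes, against 6384 units in normal nodes, a difference of -1.75. All 4 of its probes were lower, from -2.53 to -1.75, and the brightest one, which stands for the gene, had the smallest difference. With spike-in scaling Fgfr1 came to -0.97, just inside the 2-fold line. Another of its probes lies at chr8:26682852-26682911 (plus strand, mm9), with a difference of -2.16.
Fgfr1 probe: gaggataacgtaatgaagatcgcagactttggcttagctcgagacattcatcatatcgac

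The probes of the remaining FGF receptors were less uniform. Fgfr3, known for its restraint of bone growth, had 160 units in tumor-draining nodes, against 617 units in normal nodes, a difference of -1.88. Its other usable probe gave -0.59, and a further one was not above background on either array, so the mean over all Fgfr3 probes was -0.76 and the 2-fold call was lost. Fgfr4, the receptor of hormone-like FGFs in liver, had 54.1 units in tumor-draining nodes, against 201 units in normal nodes, a difference of -1.83. A neighbouring Fgfr4 probe gave -2.36, whereas the third, designed on a splice variant, had 23.2 units in tumor-draining nodes and 22.6 units in normal nodes (log2 difference 0.10). The Fgfr4 probes thus did not move alike. Fgfr2, which in epithelium receives FGF7 and FGF10, had 67.9 units in tumor-draining nodes and 105 units in normal nodes, a difference of -0.57 from the 1 probe of 2 that was above background. Every receptor had a difference below 0 as processed here, but with spike-in scaling Fgfr2 turned to 0.21.
Fgfr3 probe, first 30 bases, chr5:34079649-34079678, plus strand: ggcagatgtggttttgttaacacaaccaac

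**Figure D2:**
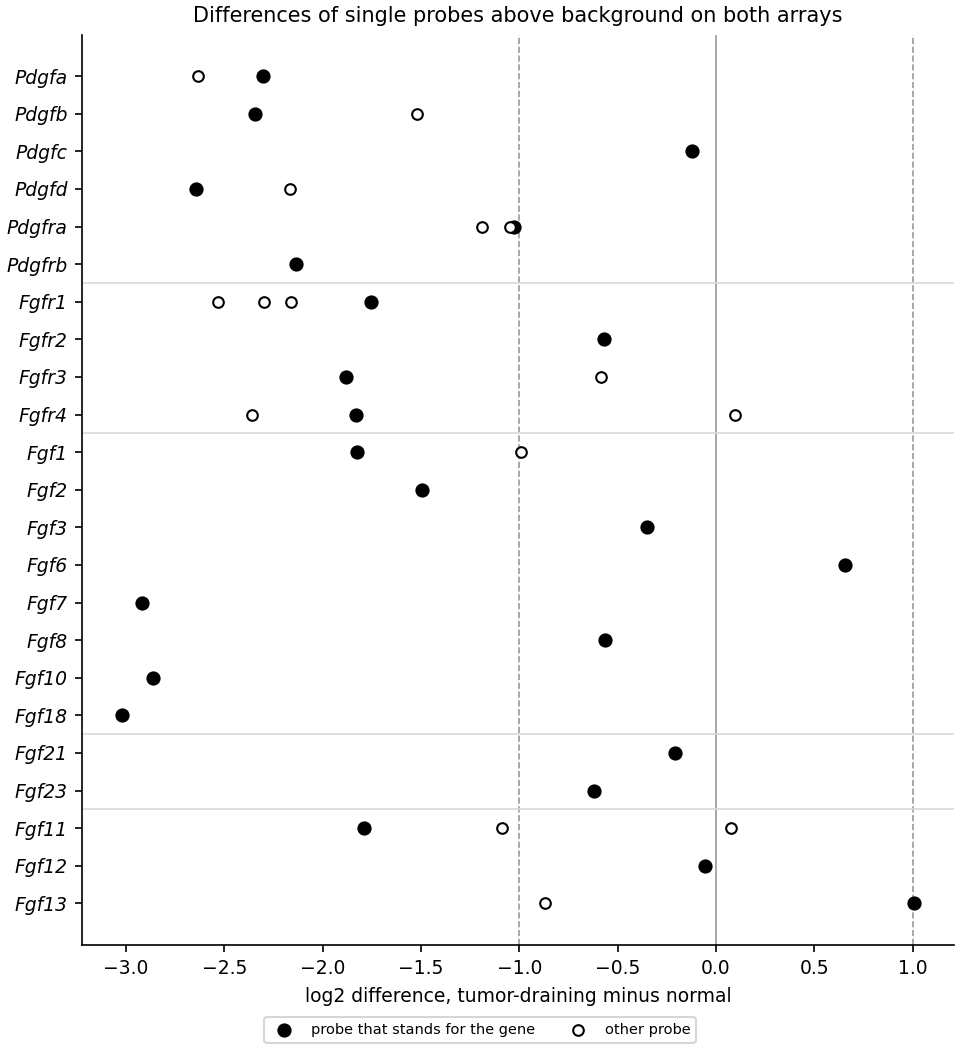
Log2 difference, tumor-draining minus normal, of each probe above background on both arrays, for the 23 members that have one, with filled points for the probe that stands for the gene and open points for others. Dashed lines mark 2-fold, and the probes of Pdgfra and Fgfr1 lie close together while those of Fgfr4, Fgf11 and Fgf13 lie on both sides of 0.

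Across the 64 probes of the members, each printed once, 38 were above background on both arrays. By size, 24 of the 38 were at least 2-fold lower, 1 was at least 2-fold higher and 34 had a difference below 0. Over all 34042 probes above background on both arrays, these shares were 14.8% lower, 12.4% higher and 41.8% below 0. No member had 1 probe at least 2-fold lower and another at least 2-fold higher. None of the 64 spots was saturated or marked as an outlier. Over 1969 pairs of probes of different members, the longest unbroken run of identical bases was 11, between Fgf21 and Fgf15.

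Among the paracrine FGFs, which act on neighbouring cells, 3 ligands of mesenchymal cells had the lowest differences of all members. Fgf18, a factor of lung and skeletal development, had a signal of 144 units in tumor-draining nodes, against 1221 units in normal nodes, 8.12-fold lower (log2 difference -3.02). Of all genes measured on both arrays, 1.34% had a lower difference than Fgf7, the keratinocyte growth factor that stroma makes for epithelium. It had 126 units in tumor-draining nodes, against 999 units in normal nodes, 7.57-fold lower (log2 difference -2.92). Fgf10, which like Fgf7 passes from stroma to epithelial FGFR2, had 145 units in tumor-draining nodes, against 1102 units in normal nodes, 7.28-fold lower (log2 difference -2.86). A further Fgf10 probe, in the conserved core, was above background in normal nodes only (84.2 units, against 9.69 units in tumor-draining nodes). By these signals it was 8.33-fold lower in tumor-draining nodes, with a software error of 0.36 on the log2 scale. For other probes above background on 1 array, a fold given as at least is set against a floor. The floor is the lowest signal of any probe above background on the dim array. It was higher than the probe's own dim signal, but it is not a strict limit of detection. Fgf7 and Fgf18 rest on 1 probe each, and the probes lie at chr11:33017441-33017500 (Fgf18, minus strand), chr2:125916134-125916193 (Fgf7, plus strand) and chr13:119580365-119580424 (Fgf10, plus strand) in mm9.
Fgf18 probe, first 30 bases: aacgaggaaactgcgagaaaccaaagtcct
Fgf7 probe, first 30 bases: gctcttcccacaaataatcatgcttatttc
Fgf10 probe, first 30 bases: acagcaaatagtgcagacgttggattctta

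Fgf1 and Fgf2, the prototype FGFs that leave cells without a signal peptide, were lower too. Fgf1, which binds every FGF receptor, had 259 units in tumor-draining nodes, against 957 units in normal nodes, a difference of -1.83, and its second usable probe gave -0.99. Fgf2, a growth factor of fibroblasts and endothelium, was dim, with 13.96 units in tumor-draining nodes, against 41.0 units in normal nodes (log2 difference -1.49). A second Fgf2 probe was above background in normal nodes only and was at least 5.78-fold lower in tumor-draining nodes. The Fgf2 call is open to the background correction: with normexp its difference was -0.37.

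The other paracrine FGFs were dim or moved little. Fgf8, an organizer of the embryo, had 17.2 units in tumor-draining nodes and 26.5 units in normal nodes, a difference of -0.56. Fgf3, a factor of the inner ear, had 10.2 units in tumor-draining nodes and 13.5 units in normal nodes (log2 difference -0.35), and another Fgf3 probe was above background in tumor-draining nodes only, at least 1.63-fold higher. Fgf6, known from skeletal muscle, had 168 units in tumor-draining nodes and 111 units in normal nodes, a difference of 0.66, from a probe designed on a predicted transcript. Fgf6 passed 2-fold higher with spike-in scaling (1.44) and by the mean over its probes (1.10), of which the other was above background on neither array. Fgf9, a mesenchymal growth factor of the gonad and lung, was above background in normal nodes only (9.09 units, against 2.62 units in tumor-draining nodes) and so at least 1.05-fold lower. In all, 5 of the 8 paracrine FGFs measured on both arrays were lower, against 15.9% of all genes, and none was higher, with a median of -1.66. Fgf4, Fgf5, Fgf16, Fgf17 and Fgf20 were not well above background on either array.

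Fgf22, a relative of Fgf7 and Fgf10 known for its part in the building of synapses, was the only member above background in tumor-draining nodes alone, as were 2.64% of all genes. Its signal was 21.9 units in tumor-draining nodes, against 1.72 units in normal nodes, at least 2.96-fold higher. A second Fgf22 probe had 2.24 units in tumor-draining nodes and 1.57 units in normal nodes and was above background on neither, so the value rests on 1 probe of 2. The Fgf22 probe (chr10:79219513-79219572, plus strand) and the core probe of Fgf10 (chr13:119577931-119577990, plus strand) read the same conserved stretch and are shown together, with capitals for the 36 bases that are identical over 59 aligned bases.
Fgf22 probe: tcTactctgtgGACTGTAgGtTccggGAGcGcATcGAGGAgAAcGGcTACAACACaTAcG
Fgf10 core probe: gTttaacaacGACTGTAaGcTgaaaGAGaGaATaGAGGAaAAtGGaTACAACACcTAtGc

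Despite these shared bases the 2 probes went opposite ways, with Fgf22 higher and the Fgf10 core lower in tumor-draining nodes.

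Neither of the hormone-like FGFs that could be measured differed by 2-fold. Fgf21, the fasting hormone of the liver, had 34.1 units in tumor-draining nodes and 41.0 units in normal nodes, a difference of -0.21. Fgf23, the phosphate hormone of bone, had 4677 units in tumor-draining nodes and 7514 units in normal nodes, a difference of -0.62. Fgf15, the bile acid hormone of the mouse ileum, was above background on neither array. Klotho and beta-klotho (Kl and Klb), the co-receptors that hormone-like FGFs need, were not above background on either array.

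The probe behind the Fgf23 value opens with a CA dinucleotide repeat, printed in capitals (chr6:127030758-127030787, plus strand). Over the 75 probes of the array with a CA or TG run of 10 units, 100% were above background on both arrays, against 60.1% of all probes. Their median signal was 7010.5 units in tumor-draining nodes and 5247 units in normal nodes, against 27.9 units in tumor-draining nodes and 30.1 units in normal nodes over all probes. Their median log2 difference was 0.89, while the Fgf23 probe had -0.62. The part of the repeat in the Fgf23 signal was not tested.
Fgf23 probe, first 30 bases: cCACACACACACACACACACAtacatgtaa

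The FGFs 11 to 14 stay inside cells, where they bind voltage-gated sodium channels and do not act through FGF receptors. Fgf11 had 72.8 units in tumor-draining nodes, against 263 units in normal nodes, a difference of -1.79, from a probe designed on a predicted transcript. Its other probes gave -1.09 and 0.08, and their mean with it was -0.93. Fgf13 was the only member measured on both arrays that was at least 2-fold higher, with 54.1 units in tumor-draining nodes, against 28.1 units in normal nodes (log2 difference 1.01). Another Fgf13 probe went the other way, with 13.0 units in tumor-draining nodes and 24.8 units in normal nodes (log2 difference -0.87). The Fgf13 probes therefore leave the direction of the gene unsettled. Fgf12 had 34.5 units in tumor-draining nodes and 37.5 units in normal nodes (log2 difference -0.06), while another of its probes was above background in normal nodes only and at least 2.55-fold lower. Fgf14 was above background in normal nodes only (11.6 units, against 4.56 units in tumor-draining nodes), at least 1.35-fold lower.

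Receptors and ligands were set side by side, since each signal needs both. Of the 6 receptors, 5 were at least 2-fold lower and none higher, with a median of -1.79. Of the 17 ligands measured on both arrays, 9 were lower and 1 was higher, with a median of -1.49. Over all genes so measured, 15.9% were lower and 11.1% higher. The medians of receptors and ligands differed by -0.30, which is smaller than the spread within either group: ligands ran from -3.02 to 1.01 and receptors from -2.13 to -0.57. All 6 receptors and 17 of the 26 ligands were above background on both arrays, against 59.9% of all genes. By family, PDGF receptors had a median of -1.58, PDGF ligands -2.32, FGF receptors -1.79 and FGF ligands -0.62. The FGF ligand median is the value of Fgf23 itself, whose probe opens with a repeat, and without Fgf23 it was -1.03 over 12 genes. The 17 ligands include Fgf11, Fgf12 and Fgf13, which do not act through FGF receptors. Without Fgf11 to Fgf14, a choice made after seeing the data, 8 of 14 ligands were lower and 0 higher, with a median of -1.66. The ligands ran from strongly lower genes (Fgf18, Fgf7, Fgf10 and the PDGF genes a, b and d) to genes near 0 (Pdgfc, Fgf12, Fgf21 and Fgf3), and all receptors lay between these.

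**Figure D3:**
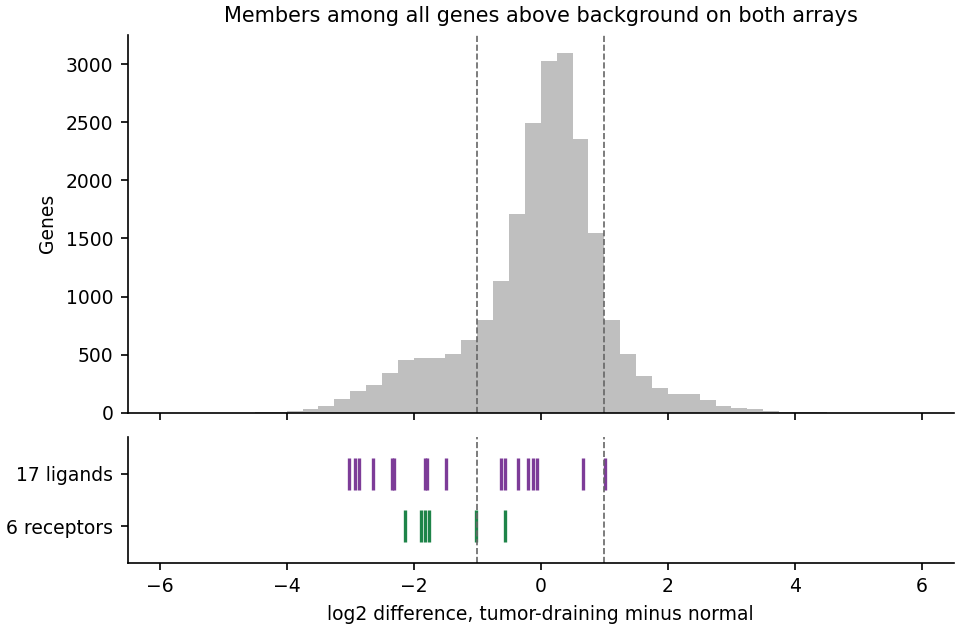
Upper panel, number of genes by log2 difference, tumor-draining minus normal, for the 22152 genes above background on both arrays, in bins of 0.25. Lower panel, 1 mark for each of the 17 ligands and 6 receptors, most of which lie left of the peak of all genes, and dashed lines mark 2-fold.

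In the plot of members among all genes, the left tail holds more genes than the right one, so lower values were also the more frequent calls on these arrays at large.

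The pathway around the members was read from 5 lists of 47 genes that the rule did not take. Among the 43 measured on both arrays, 25 were lower by 2-fold or more and 0 higher, with a median of -1.33. Over all genes, 15.9% were lower and 11.1% higher. Of the FGF co-receptors and binding proteins, 4 of 5 measured were lower: Flrt2 (-2.85) and Flrt3 (-2.08), membrane proteins that bind FGF receptors, had the lowest differences. Fgfrl1, a receptor-like protein with no kinase, had -1.50 and Fgfbp3, a carrier that frees FGFs from the matrix, had -0.73. Fgfbp1 was above background on neither array.

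Heparan sulfate carriers and their enzymes, which set how FGFs are held at the cell surface, were lower in 9 of 13, against 15.9% of all genes. The core proteins Sdc2 (-2.86) and Gpc3 (-2.78) had the lowest differences, and Sdc4 (0.21) and the sulfotransferase Hs6st1 (0.06) the highest. Of the proteases and partners of PDGFs, 5 of 6 were lower. Cspg4, the pericyte proteoglycan NG2, had -2.71 and Plau, the urokinase that cleaves latent PDGF-D, had -2.51. Plat, the protease that activates PDGF-C, had -1.46, so that ligand was nearly level while the gene of its activator was lower. Sparc, a matrix protein that binds PDGF-B, had -0.65, but its probes spread from -2.16 to 0.63.

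The signalling adaptors inside the cell differed less, with 1 of 8 lower and a median of -0.43. Gab1, a docking protein, had -1.81 and Sos1, the exchange factor for Ras, -0.95, while the adaptor Grb2 had 0.995, just inside the 2-fold line, and Plcg1, the phospholipase that both receptor families bind, 0.15. Another Sos1 probe gave 0.70, so the direction of Sos1 is unsettled. With normexp Gab1, the only adaptor called lower, came to -0.87, inside the 2-fold line. Many of these adaptors also serve leukocytes, and the part of leukocytes in their values was not tested. Feedback inhibitors and ETS factors, which are typical transcriptional targets of these receptors, were lower in 6 of 11, with a median of -1.19. Spry1 (-2.13) and Spry4 (-1.98), inhibitors that the signal itself turns on, were the lowest, and Spred2 (-0.30) and Spred3 (-0.04) the highest. Spry4 was dim, with 12.6 units in tumor-draining nodes and 51.9 units in normal nodes. With normexp Spry4 came to -0.61 and Etv4, also among the lower genes, to -0.89, both inside the 2-fold line. The probes of Spred2 spread from -0.30 to 0.89. Il17rd is among the 6 lower genes, but its probes spread from -1.59 to 0.75 and their mean was -0.24, so its direction is unsettled. Spry3 was above background on neither array. By share, 83.3% of the receptors, 52.9% of the ligands, 54.5% of the feedback genes and 12.5% of the adaptors measured on both arrays were lower, against 15.9% of all genes.

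Markers of the cell types the sort could hold moved on these arrays as well. Counts of lower markers stand beside 15.9% of all genes. Of fibroblastic reticular markers, 11 of 12 were lower (median -1.95, from Ccl19 at -3.20 to Col3a1 at -0.85), among them Pdpn at -1.96. The summed signal of this list was 166453 units in tumor-draining nodes, against 436281 units in normal nodes. Of pericyte and smooth muscle markers, 7 of 10 were lower (median -1.91, from Des at -3.36 to Mcam at 0.86), with Rgs5 at -2.90 and summed signals of 24396 units in tumor-draining nodes and 56149 units in normal nodes. Another Des probe gave 0.42. All 10 blood endothelial markers were lower (median -2.88, from Emcn at -3.54 to Pecam1 at -1.17), with summed signals of 14002 units in tumor-draining nodes and 63118 units in normal nodes. All 6 lymphatic endothelial markers were lower (median -2.20, from Flt4 at -2.87 to Pdlim3 at -1.12), with summed signals of 1648 units in tumor-draining nodes and 6870 units in normal nodes. The labelled cell type thus had its defining genes above background on both arrays, at a lower level in tumor-draining nodes.

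Pan-leukocyte, T cell and B cell markers went the other way, where 11.1% of all genes were at least 2-fold higher. All 8 pan-leukocyte markers were higher (median 1.73, from Arhgdib at 1.30 to Ptprc at 2.30), with summed signals of 90173 units in tumor-draining nodes and 28365 units in normal nodes. T cell markers were higher in 7 of 8 (median 2.29, from Cd247 at 0.81 to Cd8a at 2.78), with summed signals of 51781 units in tumor-draining nodes and 12409 units in normal nodes. B cell markers were higher in 6 of 8 (median 1.58, from Cd79b at 0.76 to Bank1 at 2.94), with summed signals of 58280 units in tumor-draining nodes and 25861 units in normal nodes. Myeloid markers were higher in 1 of 7, which is near the share of all genes (median 0.66, from Cd14 at -0.68 to Tyrobp at 1.28). Their summed signals were 19548 units in tumor-draining nodes and 18666 units in normal nodes. The part of the cell mixture in the members' differences was not tested.

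Smaller populations were mixed, beside 15.9% of all genes lower and 11.1% higher. Platelets, which carry PDGF, had 2 of 4 markers lower (median -1.50, from Pf4 at -2.87 to Gp6 at 0.35), 2 more (Ppbp and Gp9) above background in normal nodes only, and summed signals of 213 units in tumor-draining nodes and 1424 units in normal nodes. Epithelial markers were higher in 2 of 8 (median 0.30, from Cldn4 at -0.48 to Krt14 at 2.25), with 7652 units in tumor-draining nodes and 4862 units in normal nodes. Adipocyte markers were lower in 2 of 4 (median -1.41, from Adipoq at -2.44 to Lep at 0.12), with Plin1 above background in normal nodes only and summed signals of 188 units in tumor-draining nodes and 520.2 units in normal nodes. Schwann cell markers were lower in 3 of 5 and higher in 1 (median -1.71, from S100b at -4.17 to Mbp at 1.52), with 4807 units in tumor-draining nodes and 4255 units in normal nodes. Mbp alone had 4395 units in tumor-draining nodes and 1599 units in normal nodes, so the direction of this sum is that of Mbp. The other 4 markers had differences below 0, and another Mbp probe gave -0.84. Of the 93 marker genes, all had a probe.

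**Figure D4:**
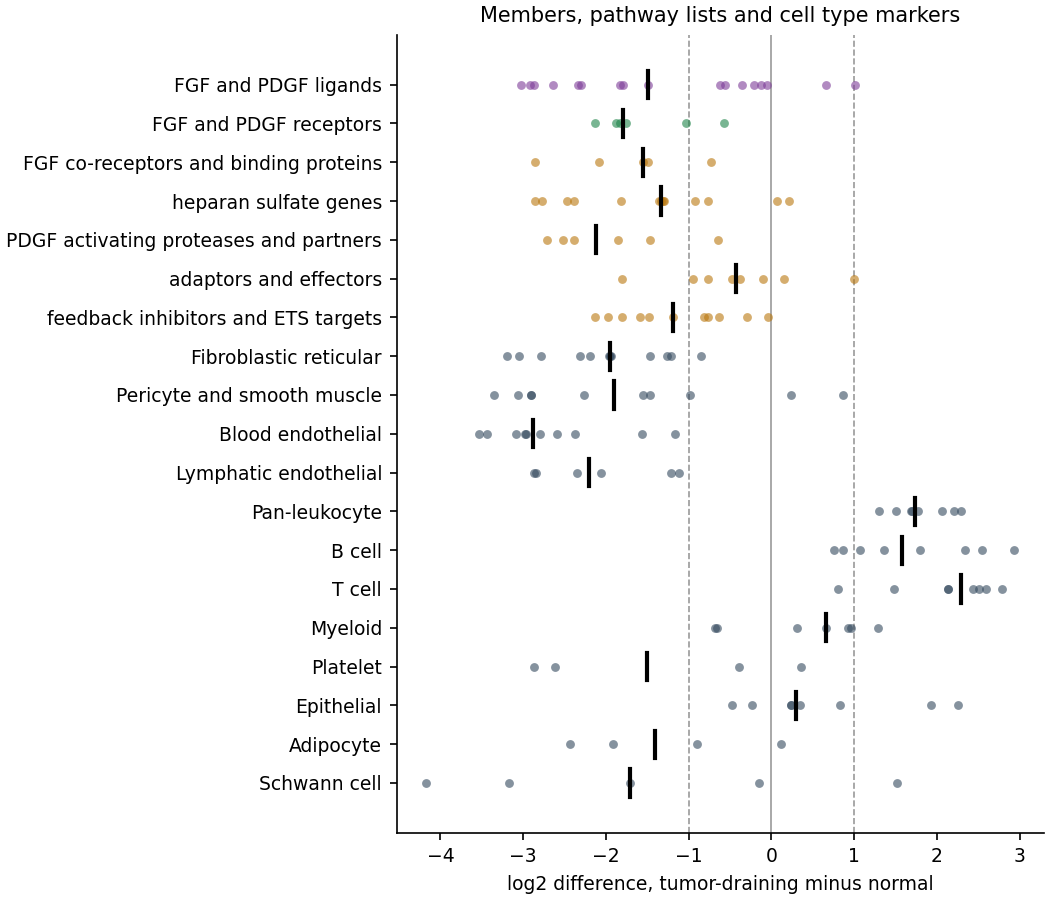
Log2 difference, tumor-draining minus normal, of each gene above background on both arrays, for the members, the 5 pathway lists and the 12 cell type marker lists, with a black bar at each list's median. Dashed lines mark 2-fold; members, stromal markers and endothelial markers lie mainly left of 0, and leukocyte markers right of it.

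The stretches before the starts of the members were compared in the RefSeq promoter table (GRCm38.p6), which matched 23 of the 32 members with 31 promoters; Fgf1, Fgf8, Fgf15, Fgf16, Fgf17, Fgf20, Fgfr1, Pdgfb and Pdgfrb were not matched. In the 250 bases before the start, on either strand, 19 of the 31 (61.3%) held the GC box GGGCGG, against 32.7% of all 32851 promoters. The median share of G and C was 52.4% over all promoters, and member promoters ran from 40.4% (Fgf13) to 77.2% (Fgf18). The part of G and C content in the motif share was not tested. The TATA box TATAAA was in 2 (6.45%, against 12.4%) and the letters CCAAT in 7 (22.6%, against 33.8%). No motif overlapped another in the sequences shown, and several promoters belong to 1 gene. The GC box was neither in all lower members nor limited to them: the lower genes Pdgfd and Fgf7 held 0, while Fgf21, which differed by less than 2-fold, held 3. Pdgfa and Pdgfc are shown as a stretch with and a stretch without the motif, with motif letters in capitals on either strand. The Pdgfa stretch (chr5:138994945-138995194, minus strand, 72.4% G and C) held 2 GC boxes, the other Pdgfa promoter in the table held 1, and the Pdgfc stretch (chr3:81036166-81036415, plus strand, 50.8% G and C) held none of the 3 motifs. A match is a description of letters only, and the arrays do not measure use of a promoter.
Pdgfa, 250 bases before the start: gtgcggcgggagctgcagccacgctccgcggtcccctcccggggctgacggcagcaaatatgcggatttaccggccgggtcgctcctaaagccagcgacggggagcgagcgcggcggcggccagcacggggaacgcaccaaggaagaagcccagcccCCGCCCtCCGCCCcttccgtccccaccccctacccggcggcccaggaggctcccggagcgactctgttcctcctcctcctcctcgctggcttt
Pdgfc, 250 bases before the start: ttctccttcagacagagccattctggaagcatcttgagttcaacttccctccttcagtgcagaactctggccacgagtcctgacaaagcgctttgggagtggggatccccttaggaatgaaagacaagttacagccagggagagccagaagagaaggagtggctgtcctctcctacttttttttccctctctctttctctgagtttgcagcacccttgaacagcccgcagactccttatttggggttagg

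**Figure D5:**
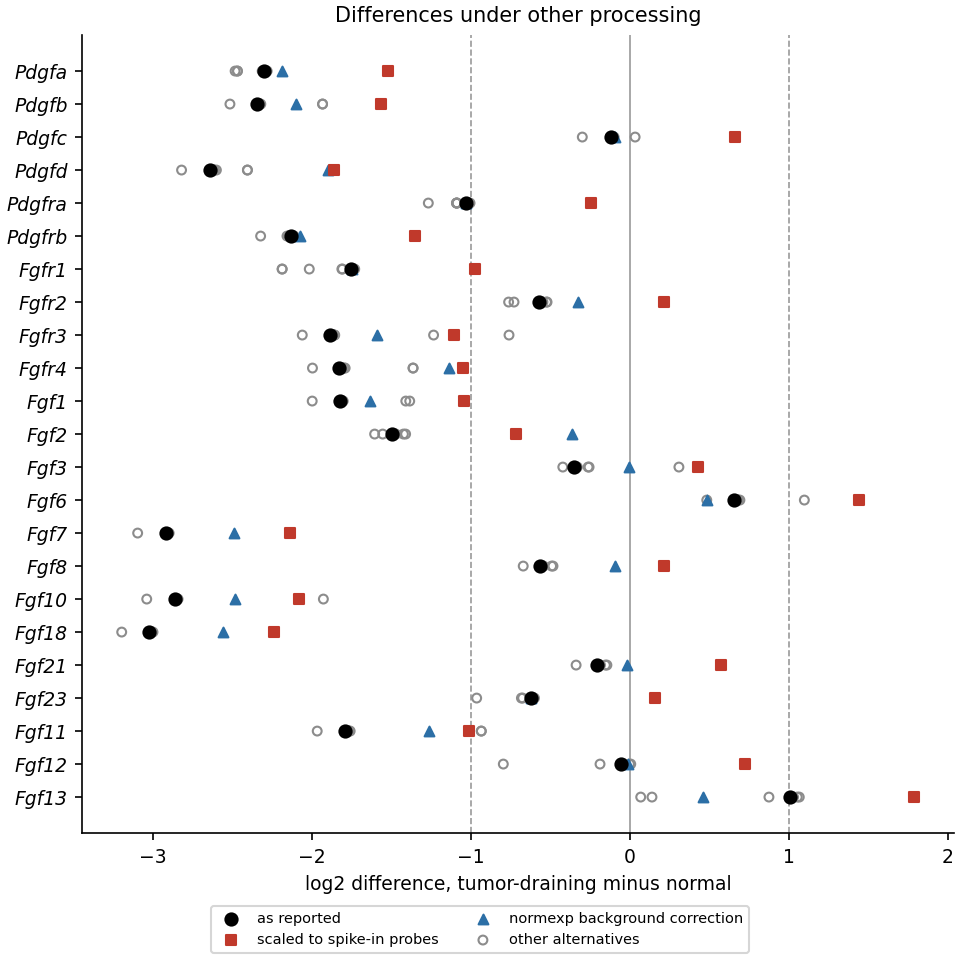
Log2 difference, tumor-draining minus normal, of the 23 members above background on both arrays as reported (black) and under each alternative processing, with red squares for scaling to spike-in probes and blue triangles for normexp background correction. Red squares lie right of the black points by the size of the spike-in shift, and 9 members stay left of the lower dashed 2-fold line under every alternative run.

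As the plot of alternatives shows, 9 of the 14 lower members kept a difference of at least 2-fold under all 11 alternatives run: Pdgfa, Pdgfb, Pdgfd, Pdgfrb, Fgfr4, Fgf1, Fgf7, Fgf10 and Fgf18. The 14 lower members kept their sign under each alternative that gave them a value. The other 5 (Pdgfra, Fgfr1, Fgfr3, Fgf2 and Fgf11) fell inside the 2-fold line under at least 1. Some alternatives could not move a member's value. Keeping outlier spots changed nothing, since no member spot was marked as one, and the background filters only take genes in or out. For genes with 1 probe, such as Fgf7, Fgf18 and Pdgfrb, the means over probes could not move it either.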

How the data were processed

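Total RNA from sorted cells was amplified with Cy3 label and read on 2 one-color Agilent arrays, 1 for each group, per the labels' protocols. The authors deposited scanner files of linear spot intensity, after background subtraction in Feature Extraction 12.0.3.1 (protocol GE1_1200_Jun14), per the file headers, although the submitters' processing notes name version 10.7, with limma. Probe positions are on mm9, per the file headers; exon or UTR was not used here. A value table that the authors deposited is in log2 units and correlated with the log2 signals of the scanner files (r = 0.9999 on both arrays; its median was 4.86 for the tumor-draining array and 4.85 for the normal array); its scale is not stated, it is not centered by gene, and it was an alternative only.

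The log2 processed signal was reduced by each array's 75th percentile over 59305 non-control spots. Outlier spots were left out, spots of a probe averaged, and and the probe brightest on average stood for its gene. Above background means that 50% or more of a probe's spots had the software's well-above-background mark. Non-members were named by RefSeq accession (32935 probes), symbol (10216), synonym (519) or the files' own name (12869). With 1 array in each group there is no test. All members are named, with the 2 highest and 2 lowest genes of each pathway list and the ends of each marker list, plus Ptprc, Pdpn, Pecam1 and Rgs5. The members and lists were chosen with earlier results of these data known. The software's spot error does not cover differences between mice. Sequences are those of the array's probes in the scanner files and of RefSeq promoters (GRCm38.p6). Python 3.11.15, numpy 2.4.6, pandas 2.3.3, R 4.3.3 and limma 3.58.1 were used.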

Additional observations from a re-analysis of the deposited data

How the results depend on the processing

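As reported, 9 ligands were lower and 1 higher (median -1.49), 5 receptors were lower (median -1.79), and 25 pathway genes were lower and 0 higher (median -1.33). Scaling to 8 spike-in probes, whose median difference was -0.78, raised every difference by that amount: 2 ligands were then higher (median -0.71), 3 receptors lower (median -1.01), and 15 pathway genes lower and 1 higher (median -0.55). Over all genes 8.40% were then lower and 44.5% higher (median 0.90), against 15.9% and 11.1%. Relative to the median of all genes, ligands stood at -1.61 and receptors at -1.91. Spike-in scaling could not change these distances, since it moved every gene by the same amount. Pdgfc then turned to 0.66, Fgf8 to 0.22, Fgf3 to 0.43, Fgf21 to 0.57, Fgf23 to 0.16, Fgf12 to 0.72, Fgfbp3 to 0.05, Sparc to 0.13, Spred2 to 0.48 and Spred3 to 0.74. Normexp correction gave 8 lower and 0 higher ligands (median -0.62), 5 lower receptors (median -1.36) and 19 lower pathway genes (median -0.89). Over all genes 10.9% were lower with normexp and 6.21% higher. Loess gave 0 higher ligands, and scaling by the median over jointly detected probes gave 1 higher pathway gene. Without a background filter 2 ligands were higher (median -0.59), and with a brighter filter the ligand median was -1.81. The mean over a gene's probes gave medians of -0.93 for ligands and -1.23 for receptors. Over jointly detected probes alone it gave -0.93 and -1.30, and 0 higher ligands. Without Fgf11 to Fgf14, an alternative chosen after seeing the data like that without Fgf23, 0 ligands were higher. The causes were not tested. Fgf13 was inside the 2-fold line with normexp (0.46), loess (0.88) and both probe means (0.14 and 0.07).

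The limits are 1 array in each group, dim probes near background, and probes that differ within a gene. No paired analysis was possible because each group has 1 array.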
